A study of Homo sapiens with 17 samples.

Results

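Acetylation of histone H3 at lysine 27 (H3K27ac) was followed in HCC1954 cells after antisense oligonucleotide transfection, in 4 of the 17 samples of a chromatin study of the long non-coding RNA LINC01235. All libraries whose labels give H3K27ac as the antibody were taken: replicates 1 and 2 of the arm NC1235 and replicates 1 and 2 of the arm Si1235. HCC1954 is an established HER2-positive human breast cancer line, both arms received antisense oligonucleotides, and chromatin was fixed 72 hours later. The arm names stand in the labels as genotypes and are not spelled out there. Si1235 was taken as the arm with LINC01235 targeted, from the series' title and the arm's name, and peak lists hold no RNA level that would check it. Whether replicates were separate cultures is not in the labels, so p-values here reflect library-to-library spread only, possibly a technical one.

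H3K27ac is written by the acetyltransferases p300 and CBP and removed by histone deacetylases. It sits on the nucleosomes flanking active promoters and active enhancers, where bromodomain proteins read acetylated lysines. Enhancers are regulatory regions that can lie far from the gene they act on, so promoter and distal H3K27ac are usually described apart. H2A.Z (H2AZ in the labels), a histone variant, and H3K9ac, an acetyl mark, occupy many of the same places and were profiled in the same cells.

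The 4 lists held 44836, 48391, 45549 and 46964 peaks, in the order NC1235 replicates 1 and 2 and Si1235 replicates 1 and 2. That order holds for every run of 4 values below. Merging the 4 lists gave 52015 regions. A region was called a promoter region when it touched the window from 1 kb before to 1 kb after a gene's start, distal when it lay more than 2.5 kb from either end of every annotated gene, and proximal otherwise. Promoter regions numbered 14213, proximal regions 7115 and distal regions 30687. Positions are given on hg38. Of all regions, 85.1% of those held by either NC1235 library were held by both, 82.8% for the Si1235 pair, and 74.7 to 76.4% for pairs across the arms. Summit pileups looked scaled in the NC1235 lists: whole-number pileups could be solved for 0.733% and 12.7% of 1500 weak peaks in NC1235 replicates 1 and 2, and for 100% in both Si1235 lists. Peak heights were therefore not compared, and depth is unknown from the lists. The main results below rest on where peaks started and ended. Alternatives with stricter or equal numbers of peaks chose them by deposited −log10 values, which may share the scaling. A stretch covered in 1 library can be uncovered in another because the signal crossed the caller's threshold, so cover is not an amount of acetylation. Whether the scaling moved with a result was not tested.

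Promoter cover was checked against markers of the labelled cell type. The windows of all 9 luminal epithelial markers held peaks in every library, and 5 of them were fully covered in all 4 libraries. Those of CDH1, EPCAM, KRT18 and KRT19 were placed at a gene end and may miss the start. All 9 basal and myoepithelial windows held peaks in every library too, with KRT5 fully covered in all 4. Presence of peaks therefore did not tell these 2 marker lists apart. ERBB2, the gene of the HER2 receptor, was covered over 88.1, 84.5, 91.35 and 88.5% of its window (chromosome 17: 39687094–39689093), a difference of 3.63 points that did not pass the test (limma adjusted p = 0.609). The windows of PTPRC, of the endothelial genes KDR, PECAM1 and TEK, and of the mesenchymal genes VIM, CDH2, TWIST1 and ZEB2 held no peak in any library. The other 5 mesenchymal windows did: FN1, SNAI2 and SPARC were covered over 83.8 to 100% in every library, ZEB1 over 32.9 to 44.25% and COL1A1 over 11.75 to 14.25%. Peaks also lay in the endothelial windows of CDH5 and ROBO4 and the immune ones of CD14, CD3E and CD8A. Only Si1235 replicate 2 lacked one at CD8A. Windows of SNAI2, COL1A1, CDH5 and CD3E were also placed at a gene end. Inside LINC01235 (chromosome 9: 13406380–13431329) each library had 1 peak, of 447, 535, 515 and 498 bp, so the 2 arms overlapped there.

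The first comparison asked how H3K27ac was spread over promoters and distal regions in either arm. Distal regions took a smaller share of the covered length in Si1235, and promoter regions a larger one. Promoter regions held 38.7, 37.9, 39.8 and 39.8% of the covered length. The 2 Si1235 libraries were the highest, by 1.502 points on average, 1.14 within replicate 1 and 1.87 within replicate 2. Distal regions held 48.8, 49.5, 47.6 and 47.7%. Here both Si1235 libraries lay below, by −1.52 points on average, −1.22 within replicate 1 and −1.82 within replicate 2. Both differences gave an exact two-sided permutation p of 0.333, the smallest that 2 against 2 libraries allow, so neither could pass 0.05. The lengths themselves moved less evenly. Distal peaks covered 33.9, 34.6, 33.4 and 31.3 Mb, lowest in Si1235 replicate 2 (exact p = 0.333). Promoter peaks covered 26.9, 26.5, 27.9 and 26.1 Mb, and the arms overlapped (exact p = 1).

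**Figure D1:**
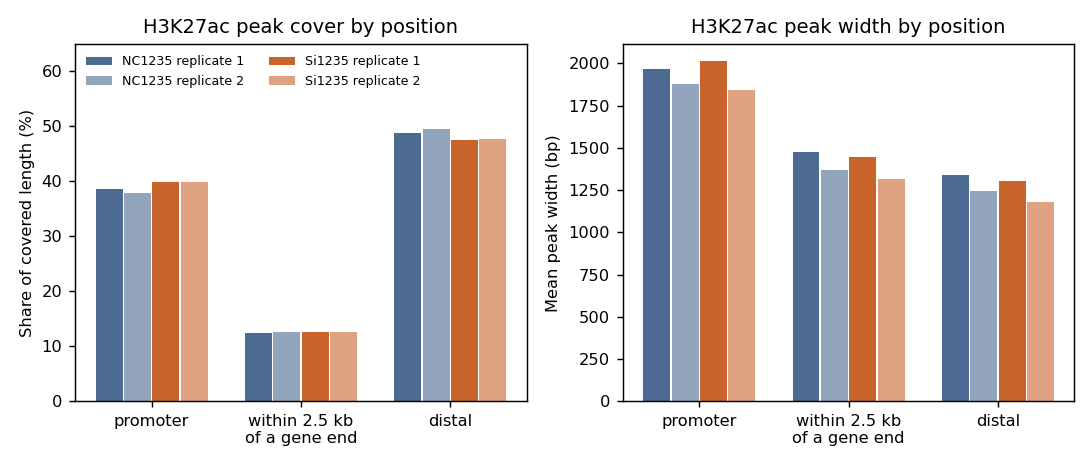
Share of the covered length (left, %) and mean peak width (right, bp) of H3K27ac peaks at promoter, proximal and distal regions, 1 bar per library. Promoter shares were 39.8% in both Si1235 libraries against 38.7 and 37.9% in NC1235, while mean widths followed the replicate number, with replicate 1 wider than replicate 2 in every class and arm.

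Peak width followed the replicate number more than the arm, as the bars of width by position show. Mean promoter peaks measured 1969, 1875, 2014 and 1841 bp, and mean distal peaks 1339, 1242, 1304 and 1179 bp. Replicate 1 was wider than replicate 2 in both arms, and the arms overlapped for both classes (exact p = 1 and 0.667). Fixed windows gave the same picture of promoters against distal sites without depending on how peaks merged. Over 40822 distal 2 kb tiles with a mean cover of at least 5%, mean cover was 45.3, 45.8, 44.5 and 41.6%. Over 15831 promoter windows it was 68.8, 67.8, 70.4 and 67.5%. Promoter cover exceeded distal cover by 23.5, 22.1, 25.9 and 25.9 points, more in each Si1235 library than in either NC1235 library. That gap was 3.17 points larger in Si1235, 2.46 within replicate 1 and 3.87 within replicate 2 (exact p = 0.333, the smallest possible).

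The next comparison asked which start sites differed in cover between the arms. Few did: of 15831 promoter windows, 102 passed limma at an adjusted p under 0.05, or 0.644%, with 49 higher (0.31%) and 53 lower (0.335%) in Si1235. They belonged to 74 protein-coding and 28 lncRNA genes, and their median difference was 13.3 points in either direction. Not all are separate places, since some windows overlap and count the same peaks, as at EHMT2 and C2 or DOT1L and AP3D1. Only 33 of the 102 windows differed by 20 points or more, 12 higher and 21 lower. The arms failed to overlap at many more windows, higher in Si1235 at 23% and lower at 17.7% of those tested. In 25 of the higher and 35 of the lower windows 1 arm stood at 100% in both libraries. In 4 and 4 more at least 1 library had no cover, and the other 20 and 14 were partial in both arms. Libraries at the same end of the percent scale show no spread between them. With 2 libraries an arm the test picks windows whose replicates lay close together, and the counts turned on single libraries. Leaving out NC1235 replicate 1 gave 342 higher and 8 lower windows, and leaving out NC1235 replicate 2 gave 256 and 3. Dropping Si1235 replicate 1 left 10 higher and 295 lower, and dropping Si1235 replicate 2 left 6 and 156. Windows reaching 2.5 kb either side of the start left 3 higher and 5 lower.

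The 250 bases before the start are given for 6 of the protein-coding genes described next, from the RefSeq promoter table of GRCh38.p14. They show how unlike the changed promoters were in base composition, from AT-rich stretches to CpG islands. They are MUC16 (chr19:9010410-9010659, minus strand), CDK2AP2 (chr11:67508163-67508412, minus strand), GASK1B (chr4:158172374-158172623, minus strand), CD36 (chr7:80623842-80624091, plus strand), CYP4B1 (chr1:46798796-46799045, plus strand) and PXMP4 (chr20:33720311-33720560, minus strand), read 5′ to 3′ on the gene's strand. Capitals mark matches on either strand to the AP-1 site (TGA, any base, TCA), GGGCGG (the GC box), CCAAT (the CCAAT box), TATAAA (the TATA box) or the interferon response element (GAAA, any 2 bases, GAAA). In CDK2AP2 a GC box and a CCAAT match overlap.
MUC16: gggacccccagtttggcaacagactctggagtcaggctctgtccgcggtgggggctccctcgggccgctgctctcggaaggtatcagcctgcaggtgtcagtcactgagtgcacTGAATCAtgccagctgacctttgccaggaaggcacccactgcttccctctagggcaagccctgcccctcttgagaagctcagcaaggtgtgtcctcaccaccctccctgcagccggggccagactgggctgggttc
CDK2AP2: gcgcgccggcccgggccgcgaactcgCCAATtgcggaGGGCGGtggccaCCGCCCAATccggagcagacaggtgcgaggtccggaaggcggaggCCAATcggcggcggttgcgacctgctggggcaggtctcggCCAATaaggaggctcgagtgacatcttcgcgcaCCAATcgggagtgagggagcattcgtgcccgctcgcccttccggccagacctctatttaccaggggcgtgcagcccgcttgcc
GASK1B: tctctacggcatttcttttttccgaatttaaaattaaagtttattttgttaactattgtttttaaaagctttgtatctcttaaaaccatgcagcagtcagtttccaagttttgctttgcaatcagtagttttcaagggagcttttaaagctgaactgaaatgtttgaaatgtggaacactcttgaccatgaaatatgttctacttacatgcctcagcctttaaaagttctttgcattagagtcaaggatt
CD36: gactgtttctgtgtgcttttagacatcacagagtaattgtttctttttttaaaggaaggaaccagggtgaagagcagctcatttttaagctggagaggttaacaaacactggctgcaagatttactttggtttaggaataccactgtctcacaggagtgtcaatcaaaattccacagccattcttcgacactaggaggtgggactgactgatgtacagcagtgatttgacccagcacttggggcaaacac
CYP4B1: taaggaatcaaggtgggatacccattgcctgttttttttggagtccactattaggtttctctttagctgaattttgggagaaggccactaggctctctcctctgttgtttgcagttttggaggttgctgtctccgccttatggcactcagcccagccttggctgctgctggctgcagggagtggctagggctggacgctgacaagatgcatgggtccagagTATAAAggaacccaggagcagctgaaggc
PXMP4: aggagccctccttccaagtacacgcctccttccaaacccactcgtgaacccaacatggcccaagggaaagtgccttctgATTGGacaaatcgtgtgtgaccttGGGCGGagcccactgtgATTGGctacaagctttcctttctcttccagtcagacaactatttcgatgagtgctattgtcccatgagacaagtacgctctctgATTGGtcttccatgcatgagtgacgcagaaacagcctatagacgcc
The first 2 of these belong to windows that rose and the other 4 to windows that fell. The 4 falls printed were the lowest in G and C of the named falls with a sequence. Of those not printed, AVEN was 58% G or C with 19 CpG and IRX2 72.8% with 27. PRRG4 was 74% with 28 and SEMA3F 80.4% with 42. Named rises not printed ran from 66.8% (ALDH3B1) to 80.8% (KCNG3). The 250 bases of GASK1B were 32.4% G or C and held 2 CpG dinucleotides, those of CD36 43.2% with 1, and those of CYP4B1 52% with 2. CDK2AP2, at 69.2% G or C with 29 CpG, has the make-up of a CpG island. MUC16 stood between, at 63.6% with 6 CpG, and its capitals are 1 AP-1 letter match. GASK1B and CD36 held none of the 5 motifs in these bases. A letter match is a description and no evidence of binding.

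Among protein-coding windows that passed limma and rose, MUC16 had the largest difference. MUC16 encodes the mucin that carries the CA125 antigen, and the window (chromosome 19: 9009409–9011408) surrounds a start inside the gene. Its cover was 0, 0, 49.65 and 54.35%, so both Si1235 libraries held a peak where neither NC1235 library did. The difference was 52.0 points (SE 2.28, limma adjusted p = 0.0491). Over peaks with a deposited −log10 q of at least 5 it was 24.8 points and did not pass (limma adjusted p = 0.724). The divergent pair MTA3, a subunit of the NuRD deacetylase complex, and KCNG3, a potassium channel subunit, share 1 acetylated stretch on chromosome 2. MTA3 was covered over 0, 0, 34.1 and 34.6% and KCNG3 over 0, 0, 33.45 and 34.6%, which are the same peaks counted from either start. Elsewhere an existing peak reached further. FRMD8, a FERM domain protein, went from 74.15 and 74% to 100 and 100%, and ALDH3B1, an aldehyde dehydrogenase, from 83.15 and 81.45% to 100 and 100%. CDK2AP2, which encodes a CDK2-associated protein, went from 81.1 and 81.9% to 98.75 and 97.7%. These 3 genes and PACSIN3, an endocytic adaptor with a window placed at a gene end (70.4, 69.25, 100 and 100%), lie on chromosome 11, and a window at full cover can rise no further.

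SPNS2, TSNAXIP1 and DOT1L, like PACSIN3, are not in the promoter table. Their windows were placed at a gene end and may miss the start. At SPNS2, a transporter of sphingosine 1-phosphate, cover was 28.3, 31.75, 72.1 and 70.4%. Both Si1235 libraries were far above both NC1235 libraries, by 41.2 points (SE 1.88, limma adjusted p = 0.0494). TSNAXIP1 had 37, 35.85, 73.7 and 73.65%, again without overlap. DOT1L, the methyltransferase of H3 lysine 79, had 84.15, 83.55, 100 and 100%, a rise of 16.2 points (SE 0.334, limma adjusted p = 0.0198). Once gaps of up to 500 bp between peaks were closed, the difference at DOT1L was 0, and that at FRMD8 16.2 points in place of 25.9 (limma adjusted p = 0.595).

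**Figure D2:**
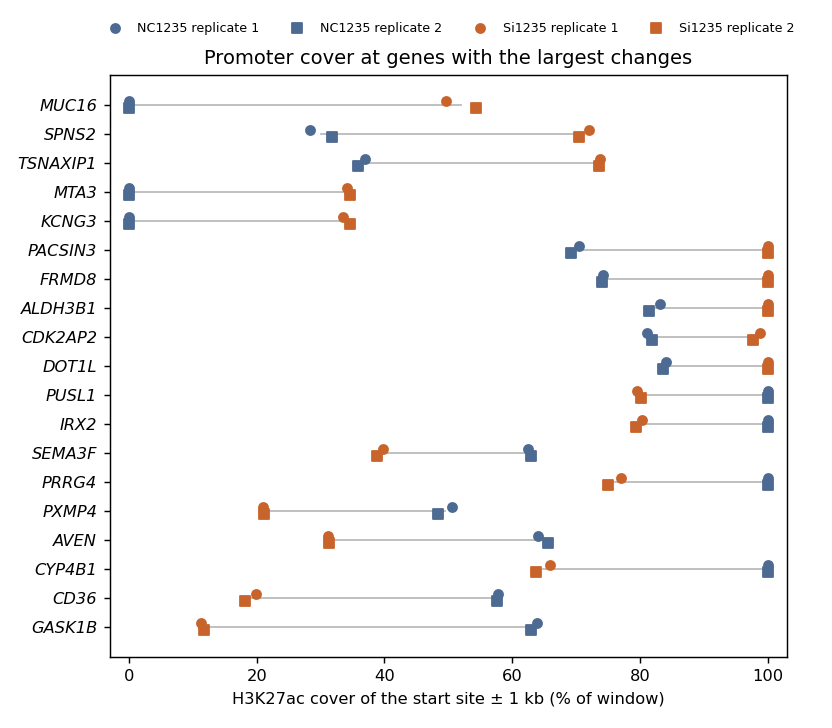
H3K27ac cover of the window around the start (x axis, % of 2000 bp) in each library for the 10 protein-coding genes with the largest rise and 9 of the 10 with the largest fall past the limma threshold. Grey lines join the arm means: MUC16, MTA3 and KCNG3 sat at 0% in NC1235, and the 2 arms did not overlap at any gene shown; the genes were chosen for their differences.

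Among protein-coding windows that passed limma and fell, GASK1B and CD36 had the largest differences, and 6 lncRNA windows fell by more than CD36. GASK1B encodes a Golgi-associated kinase-like protein and was covered over 63.85, 63, 11.35 and 11.7% (chromosome 4: 158171373–158173372). The peak shrank to a remnant in both Si1235 libraries, by −51.9 points (SE 1.002, limma adjusted p = 0.0198). CD36, the scavenger receptor that takes up long-chain fatty acids, had 57.75, 57.55, 19.95 and 18.1% (chromosome 7: 80623092–80625091), a difference of −38.6 points (SE 1.21, limma adjusted p = 0.0292). CYP4B1, a cytochrome P450 that acts on fatty acids, fell from 100 and 100% to 65.9 and 63.75%. AVEN, an inhibitor of apoptosis, fell from 64 and 65.65% to 31.1 and 31.3%. PXMP4, a peroxisomal membrane protein, fell from 50.55 and 48.35% to 21.05 and 21.1%.

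The remaining 4 falls left most or part of a wide domain covered. IRX2, a homeobox transcription factor, went from 100 and 100% to 80.3 and 79.35%, and PRRG4, a vitamin K-dependent membrane protein, from 100 and 100% to 77 and 75.05%. SEMA3F, a secreted semaphorin, went from 62.55 and 62.9% to 39.7 and 38.85%. PUSL1, a pseudouridine synthase-like protein with a gene-end window, went from 100 and 100% to 79.55 and 80.2%. In all of them both Si1235 libraries lay below both NC1235 libraries. With gaps of up to 500 bp closed the difference was 0 at IRX2 and PUSL1, and −22.4 points at CYP4B1 in place of −35.2. Leaving out any 1 of the 4 libraries kept 4 of the 20 genes with these largest changes past the threshold each time, quantile normalization kept 8, and the wider window kept 0.

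Promoters that moved by 20 points or more without overlap, whatever their adjusted p, numbered 416 higher (2.63%) and 349 lower (2.2%). Of these, 281 and 254 have a sequence in the promoter table. Over the table's 300 bases, median G and C content was 63.7% for those higher, 61.2% for those lower and 65.7% for all 12652 tested windows with a sequence. The AP-1 letters were found in 33 of the 281 higher promoters (11.7%), 22 of the 254 lower ones (8.66%), 703 of the 12652 tested (5.56%) and 7.68% of all 34961 promoters of the table. GGGCGG was found in 59.8% of the higher, 51.2% of the lower and 69.3% of the tested promoters, against 45.0% of the table. CCAAT was in 25.98, 32.7 and 35.5% and 34.6% of the table, TATAAA in 6.41, 9.45 and 5.27% and 11.5% of the table. The interferon response element was in 2.85, 1.18 and 2.68% and 3.58% of the table. Both sets of moved promoters thus held the GC box less often and the AP-1 letters more often than the tested promoters did, as a description without a test. Over 5 classes of rising G and C content, mean differences in cover were 0.07 points in the lowest, −0.02 in the highest and 0.70 to 1.07 in the 3 between. Base composition differs between these sets too, and its part was not tested.

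The gene lists asked whether groups relevant to HER2-positive cells shared a direction at their promoters. No member of the 15 lists passed limma, against 0.644% of all windows. At an unadjusted p under 0.05 the interferon list had 7 of 27 and all windows 2234 of 15831. Counts without overlap are therefore given against the 23% (higher) and 17.7% (lower) of all windows, whose median difference was 0. Of 27 tested interferon response genes 12 were higher in both Si1235 libraries and 0 lower, with a median of 3.00 points, and 9 were fully covered in all 4 libraries. CXCL11, a chemokine induced by interferon, had 0, 0, 24.4 and 23.05%, so its window held peak cover in Si1235 alone. ISG20, an exonuclease against viral RNA, had 73.4, 79.5, 100 and 100%. OASL, of the oligoadenylate synthetase family, had 45.4, 40.95, 65.45 and 58.2%, and HERC5, the ligase that attaches ISG15, 47.65, 52.95, 83.3 and 59.05%. Of the others, IFIT1, IFIT2, IFIT5, IFI44, ISG15, MX1 and OAS2 differed by 3.00 to 11.0 points from high starting cover. Gene-end windows, which may miss the start, were used for OASL, IFIT2 and OAS2. None of the 12 passed (limma adjusted p from 0.0840 for CXCL11 to 0.627 for MX1).

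Basal and myoepithelial markers leaned the other way, with 0 of 9 higher, 4 lower and a median of −7.38 points. TRIM29, a basal epithelial gene, had 31.5, 45.65, 6.6 and 0.1%, and ITGA6, the integrin chain of hemidesmosomes, 54, 53.05, 31.3 and 34.45%. Both Si1235 libraries lay below both NC1235 libraries at these and at TP63 and ITGB4, with limma adjusted p of 0.208, 0.0840, 0.702 and 0.153. ITGA6, ITGB4 and CD151 were the 3 lower members of the 9 hemidesmosome and basement membrane genes, none of which was higher. Gene-end windows, which may miss the start, were used for TRIM29, ITGB4 and CD151. Luminal markers divided evenly, with 2 of 9 higher (GATA3 and CLDN3) and 2 lower (EPCAM and CDH1).

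In the HER2 amplicon 6 of 10 windows were higher and 1, MED1, lower. These are not separate observations, since the windows of TCAP and PNMT, both placed at gene ends, overlap, as do those of STARD3 and PPP1R1B. That of PPP1R1B was placed at a gene end too. The window of PGAP3 takes in nearly all of that of ERBB2, and there the arms overlapped (89.95, 84.5, 91.7 and 88.5%). TCAP and PNMT had no cover in NC1235 and 33.65 and 23.2% (TCAP) and 23.7 and 19.35% (PNMT) in Si1235. The other 4 higher windows, ERBB2, STARD3, CDK12 and PPP1R1B, differed by 1.73 to 3.63 points. Among the HER2 and PI3K-RAS signalling genes 3 of 21 were higher and 5 lower. IRS1, an adaptor of insulin receptor signalling, had 64.4, 75.4, 51.2 and 50.3%, and PIK3R1, the regulatory subunit of PI3-kinase, 96.35, 98.95, 88.2 and 87.7%. Neither passed (limma adjusted p = 0.291 and 0.126). CDKN1A, the p53 target that encodes the inhibitor p21, had 100, 100, 74.5 and 67.05% at its window (limma adjusted p = 0.121), while the other p53 targets divided into 4 higher and 2 lower.

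The remaining lists lay near the background. Of 27 cell cycle genes 7 were higher and 5 lower, of 16 replication licensing genes 3 and 3, of 26 cytosolic ribosomal protein genes 4 and 4, and of 12 AP-1 genes 2 and 1. Of 21 genes of the acetylation machinery 4 were higher and 6 lower, among them HDAC1 (77.2, 70.9, 90.7 and 85.25%) and HDAC5 (49.4, 53, 38.7 and 38.5%), 2 histone deacetylases. Markers of other cell types were uneven. Summed cover over the 5 endothelial windows was 59.35, 34.4, 108.95 and 120.4 points. It came from ROBO4 (31.7, 28.35, 100 and 81.85%) and CDH5 (27.65, 6.05, 8.95 and 38.55%). Over the 4 immune windows the sum was 79.8, 87.25, 112.6 and 92.85 points, with CD3E at 23.2, 24.05, 57.25 and 52.4%. Gene-end windows, which may miss the start, were used for CD3E, CDH5 and HDAC5. CD14 had 22.1, 41.95, 23.85 and 40.45%, and CD8A 34.5, 21.25, 31.5 and 0%. The other windows of these 2 lists, PTPRC, KDR, PECAM1 and TEK, were at 0 in every library. Over the 9 mesenchymal windows the sum was 344.9, 335.25, 339.7 and 327.15 points, and the arms overlapped.

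Presence and absence of whole regions were counted next. A region was lost when both NC1235 lists and neither Si1235 list held a peak in it, gained when only the Si1235 pair held one, and kept when the 4 lists all did. Promoters seldom changed and distal regions changed more: 1.3% of promoter regions were lost and 1.42% gained, against 7.74% and 4.86% of distal ones and 6.21% and 4.86% of proximal ones. In numbers these were 185 lost and 202 gained promoter regions, and 2376 lost and 1492 gained distal regions. Lost and gained regions were short. At distal sites the median length was 492 bp for lost and 474.5 bp for gained regions, against 1691 bp for kept ones, and at promoters 441, 491.5 and 1945 bp. The distal excess of losses depended on the libraries. With replicate 1 of each arm alone 4538 distal regions were held only in NC1235 and 4462 only in Si1235, and with replicate 2 alone 6607 and 3919. Leaving out NC1235 replicate 1 gave 4864 lost and 1968 gained distal regions, and leaving out NC1235 replicate 2 gave 3606 and 2188. Dropping Si1235 replicate 1 gave 3490 lost and 3110 gained, and dropping Si1235 replicate 2 gave 3094 and 3340, which turns the order. Promoter counts without each library in the same order were 356 and 317, 321 and 312, 396 and 389, and 261 and 434.

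**Figure D3:**
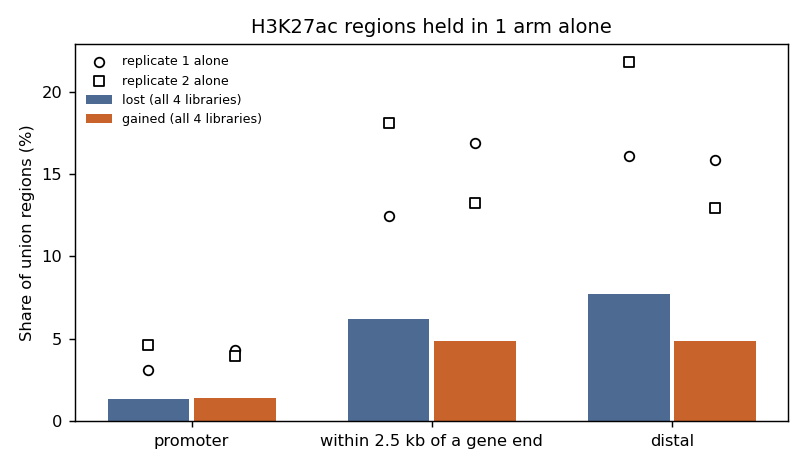
Share of H3K27ac union regions (%) that were lost (blue) or gained (orange) in Si1235, by position; bars need agreement of all 4 libraries, and open points use 1 library an arm, which alone makes them higher. Distal bars stand at 7.74 and 4.86% and promoter bars at 1.3 and 1.42%, and the distal points of replicate 1 are nearly equal while those of replicate 2 are apart.

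Lost distal regions lay further from genes than the others. Their median distance to the nearest protein-coding gene end was 47.6 kb, against 32.2 kb for gained and 34.8 kb for kept distal regions, and 45.5% of them lay inside a protein-coding gene against 53.8 and 49.9%. Among distal regions, losses outnumbered gains on every chromosome but 17, 19 and 22. The lost share of distal regions ran from 4.25% on chromosome 22 to 10.0% on the X chromosome, and the gained share from 3.55% on chromosome 9 to 8.08% on chromosome 19. Chromosome 19 had 38 lost and 60 gained distal regions, and the X chromosome 121 and 51. Chromosomes differ in gene density and base composition, whose part in this was not tested.

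The promoter regions lost over the longest stretch touched starts of CD9, a tetraspanin, CORO2B, a coronin, CAB39L, a partner of the kinase LKB1, ACTA2, smooth muscle actin, ARHGEF19, and LOC124902325, next to GTF3C5. At CD9 the peak (chromosome 12: 6225822–6227140) measured 1319, 1228, 0 and 0 bp, and at ACTA2 (chromosome 10: 88950745–88952445) 919, 1701, 0 and 0 bp. Both starts are internal ones of their genes. The ACTA2 window read as a basal marker lies at another start, overlaps that of FAS, and was covered over 95.1, 99.15, 96.35 and 93.1%. At the lost regions of CORO2B and ACTA2 both NC1235 H2AZ libraries and neither Si1235 H2AZ library held a peak. At ARHGEF19 all 4 H2AZ and both H3K9ac libraries held one, so the H3K27ac loss there was not shared by the other marks.

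Gained promoter regions with the longest stretches touched GPR17 and LIMS2, SPNS2, IQCN, CORO1A, MUC16 and KRT13. The peak shared by GPR17 and LIMS2 (chromosome 2: 127646684–127648042) measured 0, 0, 1334 and 1159 bp. KRT13, a keratin of stratified mucosal epithelium, had 0, 0, 1132 and 732 bp (chromosome 17: 41499733–41500897). CORO1A, the coronin of blood cells, had 0, 0, 1182 and 968 bp. H3K9ac was present in NC1235 at all 6 gained promoters, and H2AZ in at least 1 NC1235 library at all of them but IQCN.

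At distal sites the longest losses lay inside PAK1, a p21-activated kinase, MID1, a microtubule-associated ubiquitin ligase, PACSIN2, and GLI3, a transcription factor of Hedgehog signalling, or outside genes nearest to LOC107985043 and CSNK2A2IP. The PAK1 region (chromosome 11: 77505304–77507556) measured 2158, 2203, 0 and 0 bp and the GLI3 region (chromosome 7: 42175290–42177272) 1974, 1902, 0 and 0 bp. At PAK1 and MID1 both NC1235 and neither Si1235 H2AZ library held a peak, and H3K9ac was called in Si1235 at both. The longest gains lay inside MGLL, the monoacylglycerol lipase, VTCN1, the immune checkpoint ligand B7-H4, IGSF3 and MYH16, or nearest to HES5, a Notch target, and FOXA2. The MGLL region (chromosome 3: 127799037–127801026) measured 0, 0, 1990 and 1787 bp and the HES5 region (chromosome 1: 2533725–2535734) 0, 0, 1932 and 1731 bp. H3K9ac was already called in NC1235 at all 6 of these gained regions, and at MGLL, VTCN1 and FOXA2 it was not called in Si1235.

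Other marks, which played no part in choosing the regions, were read at lost and gained distal regions. H2AZ was less frequent in Si1235 where H3K27ac was lost, and H3K9ac was not. Of the 2376 lost distal regions 34.3, 28.7, 22.7 and 17.5% touched an H2AZ peak. Both Si1235 libraries lay below both NC1235 libraries, by −11.4 points on average, −11.5 within replicate 1 and −11.2 within replicate 2 (exact p = 0.333, the smallest possible). H2AZ itself was lost at 146 of these regions and gained at 13. At the 1492 gained distal regions the H2AZ shares were 26.8, 22.2, 30.3 and 24.9%, 3.08 points higher in Si1235 but with overlapping arms (exact p = 0.667), and H2AZ was lost at 16 and gained at 40. At the 16934 kept distal regions they were 59.3, 53.4, 57.1 and 49.7%, so replicate 2 was lower than replicate 1 in either arm. H3K9ac, with 1 library an arm and no test, touched 30.9% of lost regions in NC1235 and 37.4% in Si1235, and 37.2 and 32.8% of gained ones. It was present only in Si1235 at 387 and only in NC1235 at 231 of the lost regions, and at 161 and 226 of the gained ones. At kept regions the H3K9ac shares were 81.8 and 82.7%. Peaks of the 1 ChIRP library, from NC1235, touched 7.07% of lost, 5.56% of gained and 13.9% of kept distal regions. Kept regions were longer, and the part of length in this was not tested.

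**Figure D4:**
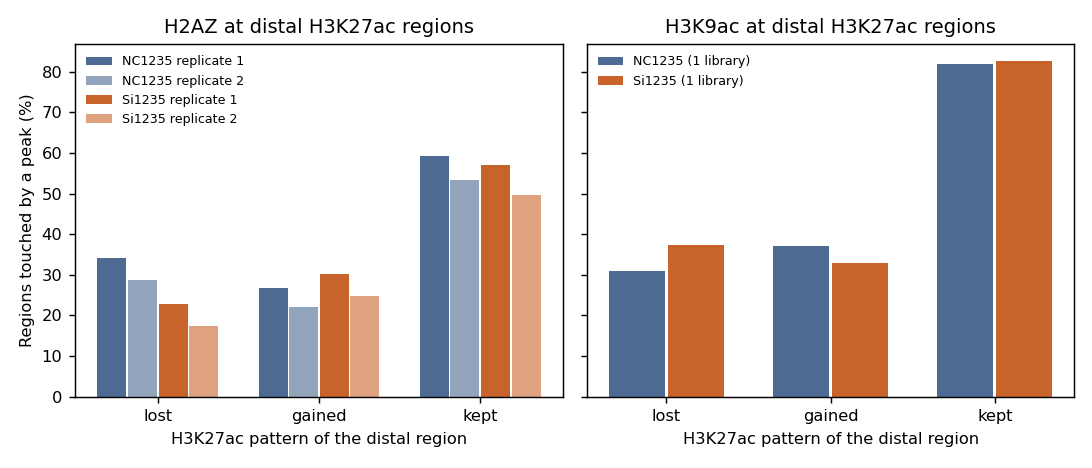
Share of lost, gained and kept distal H3K27ac regions (%) touched by a peak of H2AZ (left, 4 libraries) or H3K9ac (right, 1 library an arm). At lost regions the 4 H2AZ bars read 34.3, 28.7, 22.7 and 17.5%, the H3K9ac bars 30.9 and 37.4%.

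Cover of fixed distal tiles showed the same lean towards loss. Of 40822 tiles 2197 passed limma, or 5.38%, with 673 higher (1.65%) and 1524 lower (3.73%) in Si1235. Neighbouring tiles share peaks, and the called tiles formed 653 separate higher and 1425 separate lower runs, none longer than 3 tiles. Under quantile normalization between libraries the numbers were 751 higher and 1039 lower, a more even division. Leaving out NC1235 replicate 1 gave 582 higher and 2625 lower tiles, and leaving out NC1235 replicate 2 gave 232 and 0. Dropping Si1235 replicate 1 gave 101 higher and 1017 lower, and dropping Si1235 replicate 2 gave 104 and 657.

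Kept regions were compared for the length they covered. Promoter regions were slightly longer in Si1235 and distal ones slightly shorter, with medians of 0.02 and −0.04 on the log2 scale. Within replicates 1 and 2 these medians were 0.04 and −0.00188 at promoters and 0.00593 and −0.08 at distal regions, so the direction was not shared by both numbers. Limma called 223 of 12559 promoter regions (1.78%), 115 wider (0.916%) and 108 narrower (0.86%), and 995 of 16934 distal regions (5.88%), 300 wider (1.77%) and 695 narrower (4.1%). These calls were not stable: without the intensity trend 0 passed in either class, and after leaving out any library at most 1. The regions named here are therefore a description of the largest differences. At CAPN8, a calpain, the promoter region covered 560, 301, 2740 and 2520 bp, and at CX3CL1, the chemokine fractalkine, 362, 312, 2226 and 1834 bp. Both Si1235 libraries had a broad domain where NC1235 had a short peak. ROBO4, a receptor of endothelial cells, went from 944 and 814 to 5158 and 3744 bp, and FURIN, the proprotein convertase, from 344 and 221 to 1425 and 1172 bp. In the other direction DMD, the dystrophin gene, went from 1634 and 1546 to 280 and 328 bp, and PTP4A1, a tyrosine phosphatase, from 1496 and 1786 to 336 and 458 bp.

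Distal domains that were far shorter in Si1235 had the largest differences of all kept regions named. One inside PPARGC1A, the coactivator of mitochondrial genes (chromosome 4: 23882452–23885481), covered 2632, 2719, 274 and 225 bp, a log2 difference of −3.43 (SE 0.187). One nearest to BTG1, an antiproliferative gene 320331 bp away (chromosome 12: 91817110–91819947), covered 2732, 2180, 273 and 286 bp. A region inside FNDC3B covered 2304, 2308, 366 and 307 bp. Among the wider ones, a region 87388 bp from VEGFA, the vascular growth factor gene (chromosome 6: 43873875–43875968), covered 326, 354, 2024 and 1962 bp. Another 41579 bp from AMPD3 covered 395, 471, 2488 and 2232 bp.

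Several lost or gained distal regions could share a nearest protein-coding gene, which names a neighbour and not a target. Of 8138 genes nearest to any distal region, 133 had at least 3 lost regions and no gained one, and 33 at least 3 gained and no lost one. A gene with more distal regions nearest to it reaches 3 more easily, and over all distal regions 7.74% were lost and 4.86% gained. ANGPT1, the angiopoietin that activates the receptor TIE2, had 12 lost regions of its 26 distal ones. Its distal peaks covered 42.594, 44.69, 17.336 and 15.786 kb, so cover in both Si1235 libraries was under that in either NC1235 library by a wide margin. FAT3, an atypical cadherin, also had 12 lost regions, of 34 (38.62, 38.83, 24.201 and 21.741 kb), and MID1 had 11 of 27 (33.466, 34.133, 15.579 and 15.369 kb). PIK3R1 had 8 lost regions of 39 and 55.164, 58.273, 35.546 and 31.68 kb, beside the lower promoter cover given above. RAPGEF2, a Rap exchange factor, had 7 of 20. LOC107985043 had 10 of 20, and ANKRD50, DPH6, RIMS1 and SETBP1 had 6 each, of 26, 15, 16 and 22. Distal cover of all 10 was lower in both Si1235 libraries, as the choice of genes favours.

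Gained regions gathered in smaller numbers. SP8, a zinc finger transcription factor of limb and brain development, had 7 of 11, and its distal peaks covered 0.282, 0.31, 4.196 and 3.676 kb. Nearly all of that cover was in Si1235. EPHA4, an ephrin receptor, had 5 gained regions, with 5.045, 4.495, 6.755 and 5.925 kb. ACSS2, which makes acetyl-CoA from acetate, had 4 gained regions within 27.6 kb, with 2.89, 2.728, 6.913 and 6.011 kb. ALK, BCOR, KCNJ6, MYEOV, SYN3 and TOX2 had 4 each, out of 9 (ALK and SYN3) to 37 (BCOR) distal regions. AHR, the aryl hydrocarbon receptor, was the 1 of several genes with 3 that comes first by symbol, with 4.631, 7.827, 11.873 and 11.552 kb.

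**Figure D5:**
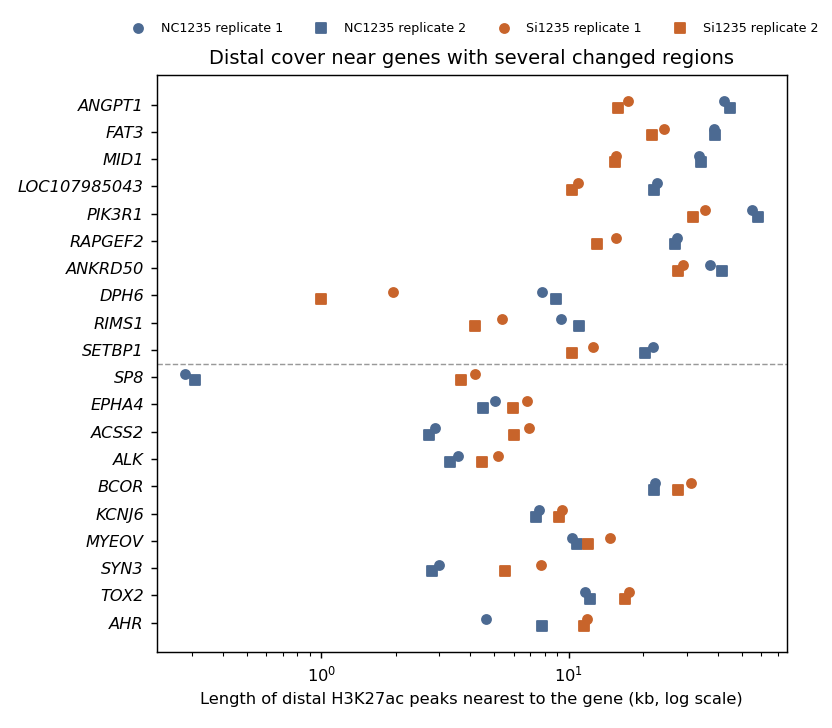
Summed length of distal H3K27ac peaks nearest to each gene (x axis, kb, log scale) in the 4 libraries, for 10 genes with several lost regions (above the dashed line) and 10 with several gained ones. ANGPT1 covered 42.594 and 44.69 kb in NC1235 against 17.336 and 15.786 kb in Si1235, and SP8 0.282 and 0.31 kb against 4.196 and 3.676 kb; the genes were chosen for such differences.

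Start sites of these genes were then read, which the choice by distal regions did not use. Of the 133 genes with lost regions 82 had a tested window: 12 were higher without overlap, 26 lower, and the median was −2.36 points. Of the 33 with gained regions 20 had one: 3 were higher, 8 lower, and the median was −0.89 points. Over all 11554 protein-coding windows 2608 were higher and 1980 lower, with a median of 0. In both sets more windows were lower than higher, the reverse of protein-coding windows in general, and this difference was not tested. RIMS1, a protein of the synaptic active zone, had 31.95, 30.4, 0 and 0% at its start, and SETBP1 56.45, 57.5, 38.65 and 29.05%. MID1, in contrast, had 71.45, 68.95, 74.6 and 75.3%, above NC1235 despite 11 lost distal regions. AHR had 71.75, 69.25, 54.75 and 54.5%, below NC1235 despite its gained regions. MYEOV, with a window placed at a gene end, had 86.55, 85.6, 100 and 98.95%, in the direction of its gained regions. Of the tested windows 0 of 82 and 1 of 20 passed limma, against 74 of 11554.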

How the data were processed

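ChIP-seq of H3K27ac was analysed in 4 HCC1954 libraries, with H2AZ (4), H3K9ac (2) and ChIRP (1) lists read at the same regions. Per the submitters' processing notes, alignment used Bowtie2 2.2.9 on hg38 and peak calling used MACS2; its settings and control are not given in the sources used here. Deposited lists, 1 per library, give peak positions, a fold enrichment over background (a ratio) and −log10 p-values and q-values, all the authors' own. Fold and −log10 values served to solve pileups (within 0.002) and to choose peaks under alternatives. The lowest −log10 q was 2.01 to 2.02 in the 4 lists, so weaker peaks are not listed.

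Windows of 2000 bp around starts came from RefSeq tables of GRCh38.p14 (27195 genes from its promoter table, 4491 at the gene end with more H2AZ and H3K9ac cover; 6465 genes had no window), on chromosomes 1 to 22 and X. Of several starts the one with most H2AZ and H3K9ac cover was used. The percent of each window or 2 kb tile covered by peaks (mean at least 5%), and log2 covered bases of kept regions, were tested with limma 3.58.1 in R 4.3.3 (intensity trend, Benjamini-Hochberg over all features, threshold 0.05). A run on simulated data used normal noise and larger shifts than any called promoter difference. It left out windows and tiles near empty or full cover, so it does not speak for calls there. Differences are Si1235 minus NC1235. Single values had exact two-sided permutation tests over the 4 libraries. Genes were named as the 10 largest called changes each way, the 6 longest lost and gained regions per class, the 5 largest called kept changes each way, and up to 10 genes each way nearest to at least 3 lost or gained regions; list members, LINC01235 and ERBB2 were added. Some genes that this rule or the lists give are not reported here. The genes described from lists that did not pass were chosen after their values were seen. The members and the 15 gene lists were chosen with earlier results of these data known. Alternatives were each library left out, stricter or equal numbers of peaks, a replicate block, no trend, normalization, filters, gaps closed and other windows.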

Additional observations from a re-analysis of the deposited data

Results flagged for a closer look

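At lost distal H3K27ac regions H3K9ac and H2AZ went opposite ways between the arms. The share of these regions touched by H3K9ac was 6.57 points higher in Si1235, with 1 library an arm, while the H2AZ share was lower in both Si1235 libraries than in both NC1235 libraries, by −11.4 points on average. The difference between the 2 marks was not tested. In the H3K9ac lists the deposited peak names give a different residue of H3 than the labels do, and the labels were used.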

How the results depend on the processing

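With 2 libraries an arm no single value could pass a test, and depth is unknown. The shares of covered length kept their direction in every alternative run. Leaving out 1 library gave 1.12 to 1.89 points for the promoter share and −1.84 to −1.20 for the distal share. The H2AZ difference at lost distal regions ran from −14.1 to −8.59 points and at gained ones from 0.37 to 5.80. These ranges were added after seeing the data. The log2 ratios of peak number (−0.01), covered length (−0.04) and median width (−0.04) changed sign: leaving out 1 library gave −0.0653 to 0.0448, −0.0860 to 0.00913 and −0.169 to 0.0814, and peaks with −log10 q of at least 5 gave 0.00817 for median width.

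Counts of calls moved most. Leaving out 1 library gave 6 to 342 higher and 3 to 295 lower promoter windows, 101 to 582 higher and 0 to 2625 lower tiles, 0 wider and 0 narrower kept promoter regions, and 0 to 1 wider and 0 narrower kept distal regions. It gave 261 to 396 lost and 312 to 434 gained promoter regions, 3094 to 4864 lost and 1968 to 3340 gained distal regions, and 2 to 8 called list members. The replicate number was fitted as a block too. With the replicate block 0 promoter windows, 0 tiles and 0 kept regions passed in either direction. The correlation of deviations between same-numbered libraries was 0.06 for promoters, 0.02 for tiles and 0.02 for kept regions. Such a correlation across features cannot show a shift common to all of them, so it does not decide whether the numbers pair the libraries. The main fits had no block because the labels do not say that a number marks a shared culture.

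Without the intensity trend 117 higher and 92 lower promoter windows, 1349 higher and 2480 lower tiles, 0 kept regions of either class and direction, and 1 list member passed. Closing gaps of up to 500 bp gave 117 and 83 promoter windows, 1117 higher and 2211 lower tiles and 4 list members. Windows of 2.5 kb either side gave 3 and 5 promoter windows and 1 list member, and quantile normalization 1 list member. A mean cover of at least 20% left 267 higher and 662 lower tiles, and union regions in place of tiles gave 1064 higher and 2059 lower. Centring each library on its median gave 191 wider and 124 narrower promoter regions, and 489 wider and 920 narrower distal regions. Distal regions beyond 10 kb of gene ends gave 910 gained and 1605 lost. The cause of these shifts was not tested. Of the alternatives for single named genes, 121 kept the call and 136 lost it, and none changed sign. The differences at DOT1L, IRX2 and PUSL1 were 0 with gaps closed.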
